A study of Mus musculus with 371 samples.

Results

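The 9 genes described here act in the class I antigen processing pathway: the peptide transporter subunits Tap1 and Tap2, the loading factor Tapbp (tapasin), the immunoproteasome catalytic subunits Psmb8, Psmb9 and Psmb10, the proteasome activator subunits Psme1 and Psme2 (PA28 alpha and beta), and Nlrc5, the class I transactivator. They were chosen by name with earlier results of these data known, and all 9 were found among the 23362 genes of the table. Ranks and shares of all genes given beside them are therefore descriptions and no test. They were read in single T cells that infiltrated B16F10 tumours, a transplantable melanoma line of the C57BL/6 mouse. The study addressed the T cell genes that depend on interleukin 27, and compared mice with the receptor gene Il27ra (WT) with mice labelled Il27ra KO.

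The 4 groups were WT CD8, KO CD8, WT CD4 and KO CD4 cells, all from C57BL/6 mice bearing B16F10 tumours, by the genotype and sort in each cell's title. The mice's age and the kind of Il27ra allele were not given in the sources used here, and the treatment label names CD8+ T cells alone, although titles name both sorts. Each group carried 1 animal name and 1 number in its titles, and was read as 1 sorted pool of cells with no replicate, which the titles do not say in words. Genotype and pool cannot be told apart in any comparison. All CD8 titles end in p1 and all CD4 titles in p2, so what that part stands for cannot be told apart from the sort either. No test between groups was therefore made, and SDs describe cells of 1 pool.

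A cell was used if 1000 or more of its genes reached 1 FPKM. That rule kept 350 cells: 90 of 94 WT CD8, 86 of 90 KO CD8, 85 of 94 WT CD4 and 89 of 93 KO CD4. FPKM scales the fragments of a gene by transcript length and library size, so levels of different genes can be compared per length. The median number of genes detected per cell was 2148, 1955, 1661 and 1868 in the same order, and 1 read of a transcript of 1 kilobase was worth about 1.93 to 2.00 FPKM in the median cell of a group. Il27ra itself was found in 50.6% to 53.5% of the cells of each group. One value per gene cannot show whether a deleted part was read, so Il27ra does not check the labels, and the cells are called labelled KO. Cd4 was detected in 0 cells of the CD8 sort, whereas 87.1% of WT CD4 and 87.6% of KO CD4 cells had it. Cd8a was detected in 83.3% of WT CD8 and 81.4% of KO CD8 cells, and in 2.35% of WT CD4 and 1.12% of KO CD4 cells, but Cd8b1 was detected in 24.7% and 21.3% of the latter groups. Cd3e was found in 86.0% to 93.3% of cells. Cells with 2 genes at 10 FPKM or above from any 1 list of B cell, macrophage, dendritic, NK, melanoma, neutrophil or stromal markers numbered at most 5 in a group. Without all such cells, 81 WT and 81 KO-labelled CD8 cells remained, and the members' median difference between them was -1.90, against -1.81 in all cells.

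Nearly all cells cut their own proteins with the proteasome and load the resulting peptides onto class I molecules. Tap1 and Tap2 form the pump that moves peptides into the endoplasmic reticulum, where tapasin holds an empty class I molecule at the pump until a peptide binds. Interferon gamma induces Psmb8, Psmb9 and Psmb10, which replace the constitutive subunits Psmb5, Psmb6 and Psmb7 in newly built proteasomes. PA28, made of Psme1 and Psme2, opens the proteasome's gate, and Nlrc5 enters the nucleus and raises transcription of class I genes.

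The 9 genes lie on 3 chromosomes of the mouse genome (mm10, GENCODE M21). Psmb9, Tap1, Psmb8 and Tap2 sit side by side in the class II region of the major histocompatibility complex, within 34.3 kilobases at chr17:34181987-34216321. Tapbp lies on the same chromosome at chr17:33915899-33929292, on the plus strand. Psme1 and Psme2 stand within 13 kilobases at chr14:55578123-55591113 and are read from opposite strands. Psmb10 is at chr8:105935735-105938444 on the minus strand, and Nlrc5 at chr8:94434356-94527272 on the plus strand. All 9 are protein coding, and each value sums the exons of a gene.

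Several models overlap, which limits their values where strand is not kept. Tap1 and Psmb9 are read away from each other and their models overlap at the starts, and Tapbp overlaps Zbtb22 on the same strand over 3422 bases. Antisense genes overlap Tap2, Tapbp, Psmb8 and Psmb10. Smart-seq2 with Nextera does not mark strand, so reads from an overlap cannot be told apart by strand. The part such reads have in the values was not tested.

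Upstream sequences are shown for some of the genes whose start regions are shared or hold a motif. Any part of these motifs in the differences between groups was not tested. RefSeq windows (GRCm38.p6) were available for 7 of the 9 genes, as 8 windows of 250 bases before the RefSeq start. Such a start can lie inside the longer GENCODE model of a gene. The Psmb8 stretch below does, since the GENCODE model of Psmb8 begins at chr17:34197721. Windows were searched on both strands for the interferon-stimulated response element core (GAAA, any 2 bases, GAAA), the gamma-activated site TTCNNNGAA and the GC box GGGCGG. Capitals mark the matches. Of 32851 windows of that length, 2.98%, 7.02% and 32.7% held a match to the 3 motifs in that order.

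The first stretch is the surrounding of the only gamma-activated site match in these windows, 97 to 89 bases before the Psmb8 start, and lies at chr17:34198088-34198116, plus strand:
Psmb8: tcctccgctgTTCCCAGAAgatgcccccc
The interval between the RefSeq starts of Psmb9 and Tap1 (chr17:34187331-34187555) is upstream of both genes by those starts. It lies inside the GENCODE model of Psmb9, which reaches to chr17:34187764, so it is not free of annotated transcripts. The second stretch is part of that interval. It is read on the plus strand at chr17:34187370-34187398 and holds that interval's only match, a GC box:
Psmb9 and Tap1: gactgaggccCCGCCCcatcatcgcgcaa
The third is upstream of Psme2, read on its minus strand at chr14:55591114-55591351 and is the part of its window that no GENCODE exon covers:
Psme2: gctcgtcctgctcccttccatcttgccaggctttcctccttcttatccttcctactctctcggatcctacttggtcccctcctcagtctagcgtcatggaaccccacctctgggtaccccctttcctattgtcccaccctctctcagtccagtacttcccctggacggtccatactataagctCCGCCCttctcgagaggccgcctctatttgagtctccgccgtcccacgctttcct
GC boxes were also matched before Tapbp and Psme1. The response element core was matched in none of the 8 windows, and Tap2 and Nlrc5 had no window.

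In the CD8 sort, all 9 genes were lower on average in the KO-labelled cells than in the WT cells. The difference of mean log2(FPKM + 1) ran from -2.70 for Tap1 to -0.90 for Psmb8, with a median of -1.81, where the median of the 4686 genes measured was -0.40. Measured genes are those detected (1 FPKM or more) in 20% or more of the cells of one group or the other. Of the 9 members, 8 were lower by at least 1, a size that 13.3% of all measured genes passed downward and 0.555% upward, and 0 members were higher by 1. The members were chosen with earlier results known, so this comparison is a description only. On the log2 ratio of mean FPKM, which high cells dominate, all 9 were still lower but only 1 passed 1, against 10.3% of all genes, which is near that background. With the cells of both groups weighted to the same detected genes, 5 passed, against 3.99% of all genes.

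The transporter subunits had large differences in the CD8 sort. Tap1 had a median of 280.9 FPKM in WT CD8 cells (0 to 1211) and 12.4 in KO CD8 cells (0 to 914.2). Among WT cells 82.2% held it (95% interval 72.7% to 89.5%), while 52.3% of KO-labelled cells did (41.3% to 63.2%). WT CD8 cells were thus the high group, and the values of single cells overlapped over most of the range. The mean log2 value was 6.64 ± 3.39 (SD over cells) against 3.94 ± 3.99, a difference of -2.70 that was the second lowest of the 4686 genes.

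Tap2, the partner of Tap1 in the pump, had a median of 160.8 FPKM in WT CD8 cells (0 to 888.7) and of 0 in KO CD8 cells (0 to 1066). The transcript was present in 73.3% of the former (63% to 82.1%) and 46.5% of the latter (35.7% to 57.6%), and the mean log2 value differed by -2.31. The highest single cell was in the KO-labelled group, while fewer of its cells held the transcript. Tapbp, which holds class I at the pump, had the smaller difference of -1.33. Its median was 225.9 FPKM (0 to 1212) in WT CD8 cells and 117.9 (0 to 911.1) in KO CD8 cells, and 81.1% and 69.8% of them held it. The complete set of Tap1, Tap2 and Tapbp was present in 57.8% of WT CD8 cells (46.9% to 68.1%) but in 24.4% of KO CD8 cells (15.8% to 34.9%).

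**Figure D1:**
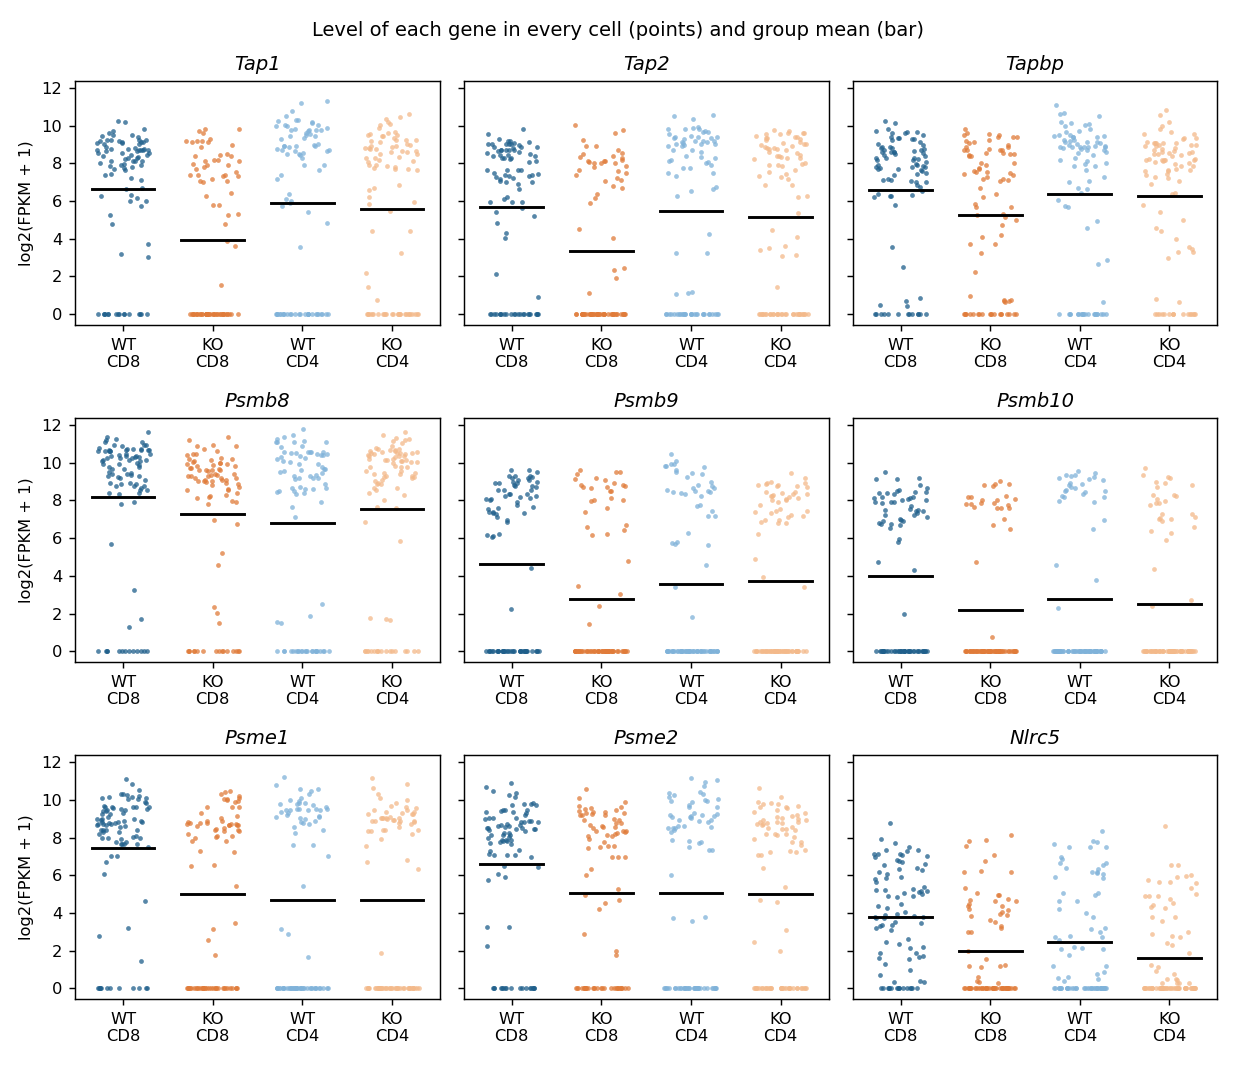
Level of each of the 9 genes in every cell (points; y axis, log2(FPKM + 1)) for the 4 groups (x axis), with the group mean as a bar. Most cells fall either at or near 0 or in a band of high values, and in KO CD8 more cells lie at 0 for Tap1 (median 12.4 FPKM against 280.9 in WT CD8).

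Of the catalytic subunits, Psmb8 differed least and had the highest mean FPKM of the 9 genes in every group. Its median was 864.7 FPKM (0 to 3126) in WT CD8 cells and 536.6 (0 to 2661) in KO CD8 cells, and it was found in 85.6% and 81.4% of them. Nearly equal shares of cells held it, with a mean difference of -0.90. Psmb9, encoded beside Tap1, had a median of 120.2 FPKM (0 to 788.8) in WT CD8 cells and 0 (0 to 775.5) in KO CD8 cells, which held it in 57.8% and 37.2% of cases. Its difference was -1.87, although its median among cells that held it was 313.6 FPKM in WT and 320.4 in KO-labelled cells. Psmb10, the subunit that takes the place of Psmb7, had a median of 39.8 FPKM (0 to 741.5) and 0 (0 to 521.4), and was found in 53.3% (42.5% to 63.9%) and 27.9% (18.8% to 38.6%), for a difference of -1.81. All 3 catalytic subunits were present in 37.8% of WT CD8 cells (27.8% to 48.6%), compared with 11.6% of KO CD8 cells (5.72% to 20.3%).

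The activator subunits were lower as well. Psme1 had a median of 418.3 FPKM (0 to 2226) in WT CD8 cells and 189.7 (0 to 1429) in KO CD8 cells. It was found in 86.7% (77.9% to 92.9%) and 60.5% (49.3% to 70.8%), and its difference of -2.46 was the third lowest of all measured genes. Psme2, which is built into the same ring as Psme1, had a median of 283.05 FPKM (0 to 1926) and 125.2 (0 to 1532), was found in 80% and 64%, and differed by -1.58. A cell held both in 72.2% of WT CD8 cells (61.8% to 81.1%), compared with 40.7% of KO CD8 cells (30.2% to 51.8%). Psme3, the PA28 form of the nucleus, was found in 10% and 16.3% of these cells, too few for it to count among the measured genes.

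Nlrc5 had the lowest mean FPKM of the 9 genes in every group. Its median was 13.5 FPKM (0 to 444.2) in WT CD8 cells and 0 (0 to 284.5) in KO CD8 cells, and it was found in 76.7% (66.6% to 84.9%) and 44.2% (33.5% to 55.3%). Its share differed by -32.5 percentage points, the most of the 9 genes, and its mean log2 value by -1.79.

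**Figure D2:**
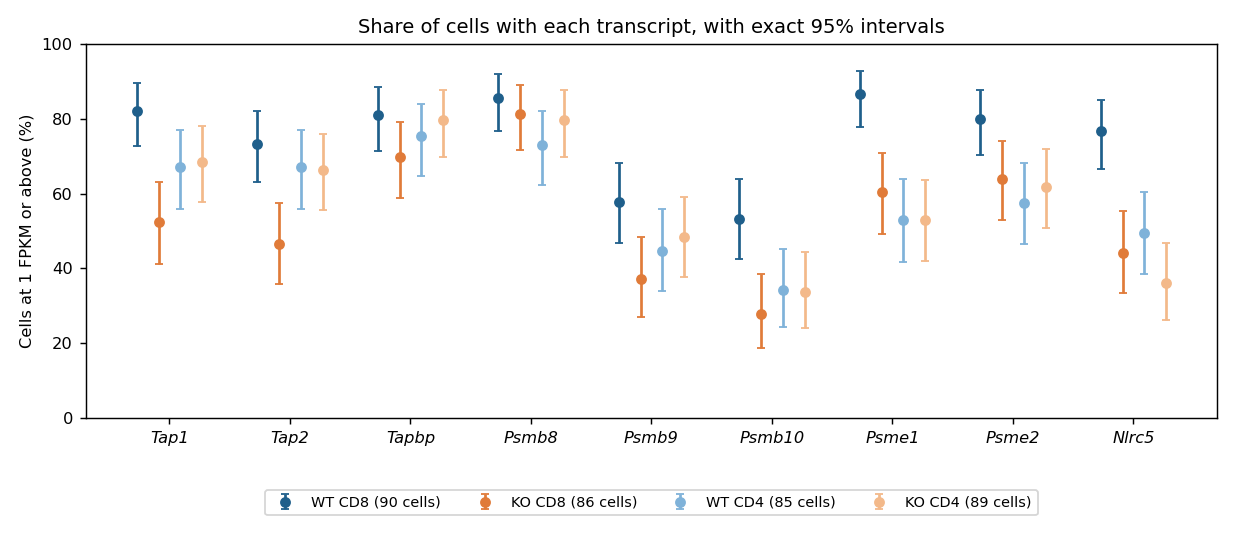
Share of cells at 1 FPKM or above (y axis, percent) for the 9 genes (x axis) in the 4 groups, with exact 95% intervals that cover counting error only. Points for WT CD8 are the highest for all 9 genes, from 53.3% for Psmb10 to 86.7% for Psme1.

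The difference in CD8 cells lay more in how many cells held a transcript than in its level where found. Over the 9 genes, the share of cells with the transcript differed by a median of -25.4 percentage points, against -6.95 over all measured genes. Where a transcript was found, the members' mean log2 value differed by a median of -0.51, against 0.03 over 4664 genes found in at least 5 cells of both groups. In that measure 8 of the 9 were lower in KO-labelled cells, by -0.34 for Psme1 to -0.63 for Tapbp, and Psmb10 was 0.31 higher. Psmb8 had -0.62 where found, with a share that differed by only -4.16 percentage points.

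Finding a transcript depends on the depth of a cell, and KO CD8 cells had fewer detected genes, so the members were also counted within ranges of detected genes. Each cell was given the number of the 9 genes it held. The median was 7 in WT CD8 cells and 5 in each of the other groups. At least 7 of 9 were found in 63.3% of WT CD8 cells, in 22.1% of KO CD8, in 36.5% of WT CD4 and in 30.3% of KO CD4 cells. Among cells with 2000 to under 3000 detected genes, the mean was 7.32 in WT CD8 (38 cells) and 5.74 in KO CD8 (35 cells). Among those with 1500 to under 2000, it was 5.42 (26 cells) and 4.38 (40 cells). In cells with 1000 to under 1500 detected genes the values were 2.60 (5 cells) and 2.50 (8 cells), and KO CD8 had 3 cells with 3000 or more.

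Within the range of 2000 to under 3000 detected genes, all 9 members lay below the median of all genes, which was 0.02, and their median difference was -1.44. There, 6 were lower by at least 1, against 6.65% of 4799 genes. In the range of 1500 to under 2000 the members' median was -1.07 against 0.10, 5 were lower by at least 1 against 9.04% of 3586 genes, and Psmb9 and Tap2 were 0.68 and 0.30 higher. In the range of 1000 to under 1500, with 8 KO-labelled and 5 WT cells, the members' median was 0.00 against -0.41 for all genes. There, 3 of the 9 lay below the median of all genes, and Psmb8 and Tapbp were 5.36 and 2.82 higher. The lower level of KO-labelled cells was thus seen in the ranges with 1500 to under 3000 genes and not in the lowest, which held few cells.

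**Figure D3:**
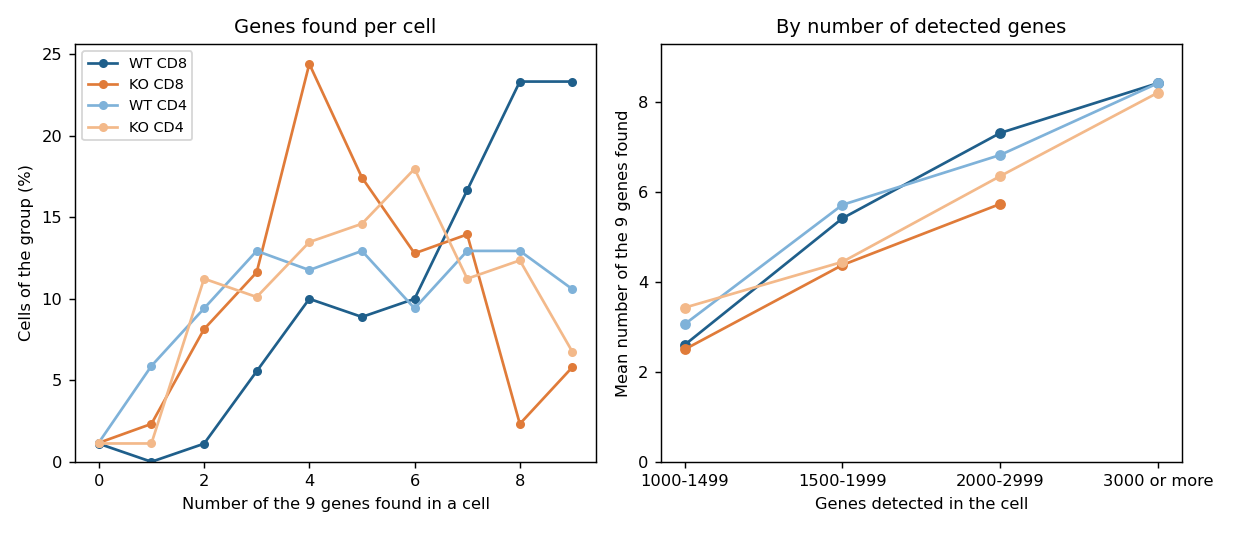
Left, share of cells of each group (y axis, percent) by the number of the 9 genes found in the cell (x axis). Right, mean number found (y axis) by genes detected in the cell (x axis). WT CD8 leads KO CD8 by 7.32 to 5.74 in the range of 2000 to under 3000 genes, and every group rises with detected genes.

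On mean log2(FPKM + 1) over all cells kept, the 9 genes differed less in CD4 than in CD8 cells, and none by 1 or more. Most still stood below the median of all genes. Within 1500 to under 2000 detected genes the contrast was not seen, with members' medians of -1.13 in CD4 and -1.07 in CD8 cells. Within 2000 to under 3000 they were -0.73 and -1.44. The difference between the sorts was not tested. KO minus WT ran from -0.83 for Nlrc5 to 0.77 for Psmb8, with a median of -0.09, where the median of the 3864 genes measured was 0.23. No member was lower by at least 1, a size 0.983% of the genes passed downward, and none was higher by it, against 9.91%. Below 0 stood 7 of the 9, and 8 stood below the median of all genes. The members' median was -0.51 on the log2 ratio of mean FPKM (all genes, 0.10) and -0.53 with equal detected genes (all genes, 0.07). Without cells with Pdcd1, Havcr2 or Lag3 it was -0.58 (all genes, 0.17). On mean FPKM the members' median less that of all genes was -0.61 in CD4 and -0.50 in CD8 cells. Among cells whose lineage transcripts matched the sort (61 KO-labelled cells and 54 WT cells with Cd4 and neither Cd8a nor Cd8b1), the members' median was 0.40 against 0.28 for all genes, and 4 stood below that median. For Tap1, 67.1% of WT CD4 cells (56% to 76.9%) and 68.5% of KO CD4 cells (57.8% to 78%) held the transcript, with medians of 348.97 FPKM (0 to 2536) and 221.5 (0 to 1552), and the difference was -0.30.

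Tap2 and Tapbp differed by -0.31 and -0.09 in CD4 cells. For Psmb8 the shares were 72.9% in WT and 79.8% in KO-labelled CD4 cells, at medians of 587.5 FPKM (0 to 3515) and 709.7 (0 to 3191), a difference of 0.77. Psmb9 and Psmb10 had differences of 0.15 and -0.27. Psmb8 alone stood above the median of all genes, and Psmb9 was below 0 under 4 of 13 alternative settings, with -0.57 on mean FPKM. Psme1 was found in 52.9% and 52.8% of cells, with a difference of -0.01, and Psme2 in 57.6% and 61.8%, with -0.05. Nlrc5 was seen in 49.4% (38.4% to 60.5%) of WT CD4 and 36% (26.1% to 46.8%) of KO CD4 cells, with medians of 0.840 FPKM (0 to 327.4) and 0 (0 to 391.4), so it was the only member below -0.5 in this sort.

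**Figure D4:**
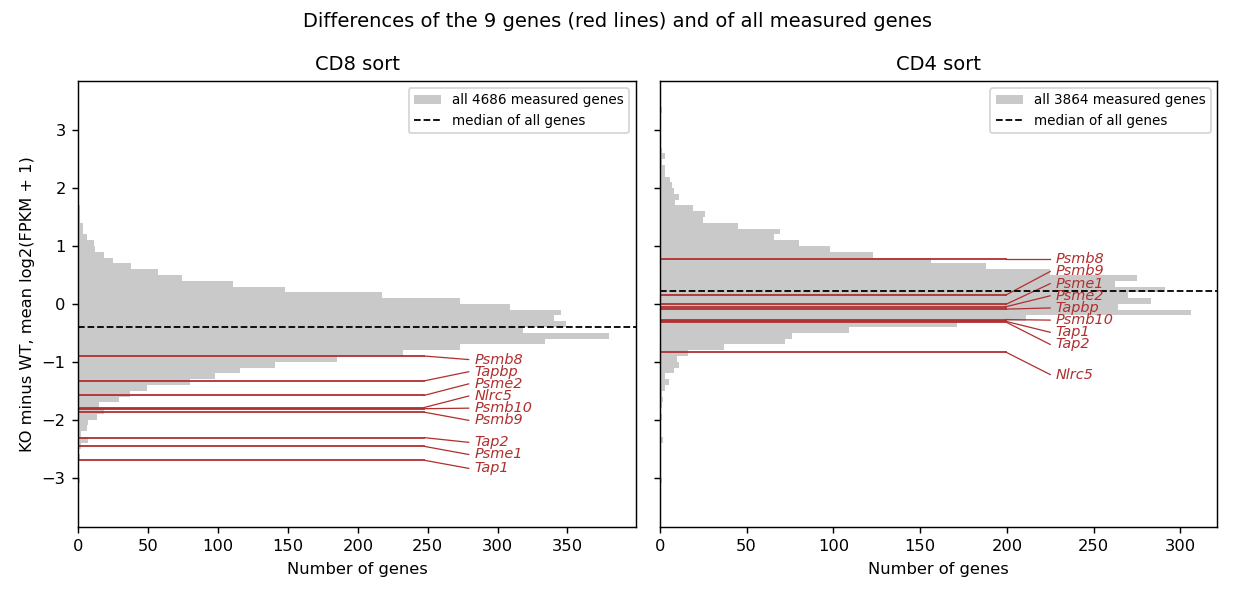
Distribution of KO minus WT differences of mean log2(FPKM + 1) (y axis) over all measured genes (bars, number of genes on the x axis) in the CD8 sort (left) and CD4 sort (right), with the 9 genes as red lines and the median of all genes dashed. In CD8 the lines run from -2.70 to -0.90, below a median of -0.40, and in CD4 from -0.83 to 0.77, with 8 of the 9 below a median of 0.23.

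As in the CD8 sort, the CD4 groups differed in detected genes, here with more in KO-labelled cells. Where a member was found in CD4 cells, its mean log2 value differed by a median of -0.50 (all genes, -0.03), while shares differed by 1.48 percentage points (all genes, 3.65). Within cells with 1500 to under 2000 detected genes, the members' median was -1.13 (38 KO-labelled and 29 WT cells), all 9 were below the median of all genes, and 7 were lower by at least 1, against 9.90% of 3526 genes. With 2000 to under 3000 genes it was -0.73 against -0.11 for all genes (28 and 18 cells), and 2 were lower by at least 1, against 15% of genes. With 3000 genes or more it was -1.19 against 0.09 (9 and 7 cells), and 5 were lower by at least 1, against 20.1% of genes. With 1000 to under 1500 genes it was 0.50 against 0.17 (14 and 31 cells). The members' median was thus below that of all genes in 3 of the 4 ranges and above it in the lowest.

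Foxp3 marks regulatory T cells, and 54.1% of WT CD4 and 39.3% of KO CD4 cells had it. Cells with it held more of the members (5.93 of 9 against 4.36 in WT CD4, and 6.09 against 4.74 in KO CD4). Their detected genes were also higher, at medians of 1884 against 1547 and 2152 against 1746. Without cells that had Foxp3, the members' median KO minus WT difference in CD4 cells was 0.21, equal to that of all genes. The part of Foxp3 cells in the CD4 differences was not tested further.

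WT CD4 cells had lower means of log2(FPKM + 1) than WT CD8 cells for all 9 genes. The differences, CD4 minus CD8, ran from -2.79 for Psme1 to -0.21 for Tap2 and Tapbp, with a median of -1.24 against -0.53 over 4729 genes. Of the 9, 6 were lower by at least 1, a size that 23.4% of all genes passed downward and 1.54% upward. The 6 were Psmb8, Psmb9, Psmb10, Psme1, Psme2 and Nlrc5, and Psme1 was found in 86.7% of WT CD8 and 52.9% of WT CD4 cells. Weighted to equal detected genes, the median of the members was 0.29, against -0.08 for all genes, with at least 2000 genes in a cell it was 0.01, and on the log2 ratio of mean FPKM 0.06, against -0.18 for all genes. The direction of most members in WT cells thus did not hold under these settings. Mean FPKM was higher in WT CD4 than in WT CD8 cells for Tap1 (447.2 against 312.4), Tap2 (330.7 against 217.4) and Tapbp (403.1 against 296.7). It was also higher for Psmb10 and Psme2, and lower for Psmb8, Psmb9, Psme1 and Nlrc5. Psme1 and Nlrc5 kept their sign under each of 13 alternatives, but Psme1 went from -2.79 to -0.05 with at least 2000 genes and to -0.41 on mean FPKM, and Nlrc5 from -1.30 to -0.44 on mean FPKM.

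Among cells labelled KO, CD4 was above CD8 for the transporter genes. The differences were 1.80 for Tap2, 1.64 for Tap1 and 1.03 for Tapbp, and these 3 were the members higher by at least 1, against 8.24% of 3956 genes, while 0 were lower by it, against 4.55%. The catalytic and activator genes had differences from -0.34 (Psme1) to 0.96 (Psmb9), and Nlrc5 had -0.34. Both sort comparisons share groups with the genotype comparisons, so their values are given side by side only.

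Other genes of the pathway were read from lists, which were also chosen with earlier results of these data known. The levels of the class I chains ranged widely, from B2m and H2-K1, found in nearly all cells, to H2-M3, found in 18.8% to 32.2%. In KO CD8 cells 1 of 13 measured was lower by at least 1 (H2-M3, -1.02), against 13.3% of all genes. B2m, the light chain, had a median of 4518 FPKM in WT CD8 (0 to 12803) and 3168 in KO CD8 cells (0 to 11523), a difference of -0.32. H2-K1 and H2-D1, the classical heavy chains, had -0.21 and 0.07. The median of the class I list was -0.54 in CD8 and -0.08 in CD4 cells.

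Of 13 other loading and trimming factors measured, 3 were lower by at least 1 in KO CD8 cells, where 13.3% of all genes were. Pdia3 (ERp57, the disulfide isomerase of the loading complex) had -1.77, Calr (calreticulin, its chaperone) -1.69 and Hspa5 (BiP, a folding chaperone) -1.42. The aminopeptidase Erap1, which trims peptides, had -0.76. The list's median was -0.53 in CD8 and 0.23 in CD4 cells, where Sec61b, a channel subunit, had 1.45, Tapbpl, a tapasin relative, -1.07, Pdia3 0.89 and Calr 0.85.

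The list called constitutive proteasome was lower as well, though less than the members. Its Psmb5, Psmb6 and Psmb7 are the subunits that the immunoproteasome replaces, so most of the list is not particular to the constitutive form. All 32 measured genes of the 34 were below 0 in KO CD8 cells, their median was -0.78 against -0.40 for all genes, and 11 were lower by at least 1, against 13.3% of all genes, with the largest differences for Psmd7 (-1.90), Psmc3 (-1.62), Psmb7 (-1.62) and Psmc2 (-1.45), subunits of the regulatory cap except Psmb7. In CD4 cells the median was 0.46, and Psmb3 (1.86), Psmd4 (1.52), Psmd14 (1.20) and Psma7 (1.00) were the 4 of 32 higher by at least 1, a share near the 9.91% of all genes. Class II genes were too rare to be measured in CD8 cells, where 0 of 7 passed the filter.

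The transcript level of each catalytic immunoproteasome gene was set over that of its constitutive counterpart. Such a ratio does not measure the exchange of subunits in the proteasome itself. Psmb8 was above Psmb5 in every group, with a ratio of mean FPKM of 4.83 for WT and 3.18 for KO-labelled CD8 cells, and of 6.07 for WT and 5.23 for KO-labelled CD4 cells. The ratio of Psmb9 to Psmb6 was 1.25, 0.819, 1.39 and 1.46 in the same order, so it was below 1 in KO CD8 alone. That of Psmb10 to Psmb7 was 1.41, 1.44, 2.03 and 1.03. Psmb8 stood without Psmb5 in 48.9% to 54.7% of cells, whereas Psmb5 stood without Psmb8 in 3.53% to 6.98%. Psmb5 was found in 25.9% to 43.3% of the cells of a group and Psmb8 in 72.9% to 85.6%. Those shares thus also follow how often each was detected. In KO CD8 cells Psmb9 without Psmb6 and Psmb6 without Psmb9 were equally frequent, at 24.4% each.

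The list of 17 interferon signalling genes had a median of -0.52 in CD8 cells, against -0.40 for all genes. Of the 17, 2 were lower by at least 1, a share near the 13.3% of all genes. Irf8, a lineage and interferon-induced factor, differed by -1.82, Ifng, the cytokine itself, by -0.88, and its receptor chain Ifngr1 by 0.78. In CD4 cells the median over the 15 measured was -0.14, against 0.23 for all genes. Jak1 (a kinase of the receptors) had 0.75, Irf7 -0.72 and Irf1 -0.70.

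**Figure D5:**
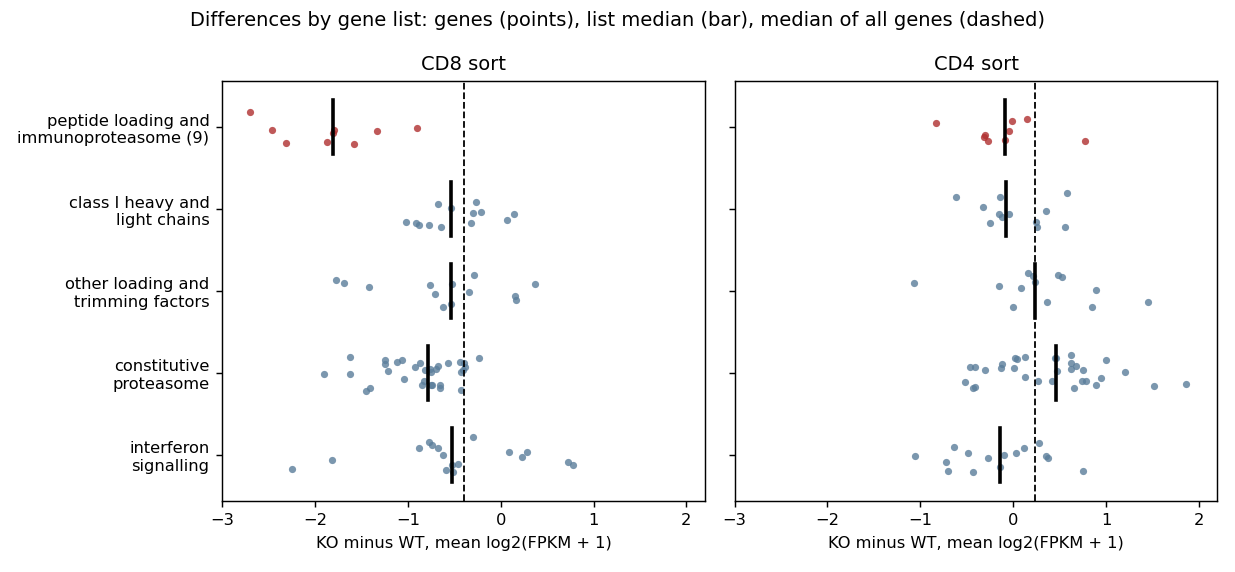
KO minus WT differences (x axis, mean log2(FPKM + 1)) by gene list (y axis) in the CD8 sort (left) and CD4 sort (right), with genes as points, list medians as bars and the median of all genes dashed. In CD8 the 9 genes have a median of -1.81, the list called constitutive proteasome -0.78 and the class I chains -0.54. In CD4 the medians are -0.09, 0.46 and -0.08.

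From cell to cell within a group, the 9 genes moved together only weakly. Over the 36 pairs, after a straight line on log2 of detected genes was removed, the median Pearson r was 0.11 over the 90 WT CD8 cells, 0.09 over the 86 KO CD8 cells, 0.14 over the 85 WT CD4 cells and 0.07 over the 89 KO CD4 cells. Before that removal it was 0.24, 0.14, 0.29 and 0.17. The pair with the highest minimum over the groups was Tapbp and Psmb9, with 0.20 to 0.29, followed by Tap1 and Tap2 with 0.17 to 0.22. The neighbours Tap1 and Psmb9 ran from -0.03 to 0.22, and Psme1 and Psme2 from 0.05 to 0.23. Both genes of a pair share each cell's library and depth, and in sparse values such weak correlations are no finding.

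Among 2374 genes detected in 20% or more of each group's cells, the 5 most like the mean of the 9 members were picked by the minimum over the groups of r, after the same removal. Ly6a, the surface protein Sca-1, was first, with r from 0.38 to 0.43, and its KO minus WT difference was -1.82 in CD8 and -1.18 in CD4 cells. Actb, beta-actin, followed with a minimum of 0.27, Cd52 with 0.23, S100a6 with 0.21 and B2m with 0.19. B2m, the light chain that pairs with each class I chain, had r from 0.19 to 0.64 and differed by -0.32 between the CD8 groups. Ranks by such weak correlations are a description only.

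Cells with transcripts of activated T cells held more of the members. WT CD8 cells with Pdcd1, Havcr2 or Lag3, receptors of stimulated T cells, held a mean of 7.41 of the 9, against 6.15 without them, and KO CD8 cells held 5.42 against 4.47. In WT CD8 cells with Prf1 or Gzmb, the killing proteins, the mean was 7.47 against 6.00, and in KO CD8 cells 5.56 against 4.54. Such cells were 52.2% of WT CD8 and 29.1% of KO CD8 cells, and those with Pdcd1, Havcr2 or Lag3 were 48.9% and 38.4%. Detected genes moved too, at a median of 2750 with those receptors and 2028 without in WT CD8 cells, but 1905 with and 1962 without in KO CD8 cells. With Prf1 or Gzmb it was 2482 against 2018 in WT CD8 and 2134 against 1929 in KO CD8 cells.

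The CD8 comparison was also made with either kind of cell left out. Without cells with Pdcd1, Havcr2 or Lag3 the median was -1.45 (all genes, 0.01) over 53 KO-labelled and 46 WT cells, and without cells with Prf1 or Gzmb it was -1.18 (all genes, -0.08) over 61 and 43 cells. In both settings 6 of 9 members were lower by at least 1, against 6.26% and 6.24% of genes, where 8 had been in all cells. Psmb10 (-0.80 and -0.90) and Psme2 (-0.96 and -0.99) were under that size in both settings, as were Psmb8 (-0.64) in the first and Tapbp (-0.78) in the second. The part of such cells in the difference was not tested further. Without dividing cells, those with Mki67 or Top2a, the median was -1.80 (all genes, -0.19) and 8 of 9 were lower by at least 1, against 8.10% of genes.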

How the data were processed

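Values are FPKM per gene as the authors deposited them. Bowtie, RSEM and mm10 are named in the submitters' processing notes, and the labels name TMM scaling. Tool versions are not given in the sources used here. Smart-seq2 and Nextera XT made the libraries, per the labels' protocols. Of 375 columns, 4 columns matched to no sample and were not used; the rest were single cells matched by title. A further 4 entries with repeated symbols were left out.

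Python 3.11.15 with numpy 2.4.6, pandas 2.3.3, scipy 1.17.1 and matplotlib 3.10.9 was used. Group levels are means of log2(FPKM + 1), which understates changes of low genes. With 1 pool a group no test was made; a difference of at least 1 counts as called. The 95% intervals of shares are exact (Clopper-Pearson) and describe counting of cells alone. No doublet caller was used and cells were not clustered. Read counts were not used here, and FPKM summed to medians of 475300 to 557200 per cell. The difference measures were tested on simulated data, with both groups drawn from WT CD8 cells and given the same numbers of detected genes. How well the weighting corrects for unlike detected genes was therefore not tested. Named genes are the 9 members, Il27ra, the counterparts, the 4 largest differences per list and the 5 most alike genes; 1 gene that this rule selects is not reported here; B2m, H2-K1 and H2-D1 were named after their values were seen. The 9 members and all lists were chosen with earlier results of these data known.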

Additional observations from a re-analysis of the deposited data

Results flagged for a closer look

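Over all cells kept, 2 of the 9 genes had differences of opposite sign in the 2 sorts. Psmb8 was 0.77 higher in KO than in WT cells of the CD4 sort and differed by -0.90 in the CD8 sort. Psmb9 was 0.15 higher in the CD4 sort, which is below the median of all genes there (0.23), and differed by -1.87 in the CD8 sort. Its CD4 value was below 0 under 4 of 13 alternatives, namely -0.57 on mean FPKM, -0.58 with at least 2000 genes, -0.28 with equal detected genes and -0.02 without Pdcd1, Havcr2 or Lag3 cells, while that of Psmb8 stayed above 0 in all 13. Within ranges of detected genes both changed sign in CD4 cells. Psmb8 had 1.84 at 1000 to under 1500 genes, -1.13 to under 2000, 1.15 to under 3000 and -0.88 above. Psmb9 had 0.60, -1.05, 0.11 and -2.13 in the same order. In CD8 cells with 1500 to under 2000 genes, Psmb8 had -0.06 and Psmb9 0.68. Each group is 1 pool, so the difference between the sorts was not tested.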

How the results depend on the processing

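All 9 KO minus WT differences in CD8 cells stayed below 0 under each of the 13 alternatives. Their number lower by at least 1 (8) was 5 after weighting cells to like detected genes (3.99% of all genes) and 1 on the log2 ratio of mean FPKM (10.3%). In CD4 cells the number (0) was 1 with a pseudocount of 0.1 (3.08% of all genes), with each cell rescaled to the same FPKM sum (1.5%), with equal detected genes (1.84%), on mean FPKM (4.68%) and without Mki67 or Top2a cells (1.56%), 2 without Pdcd1, Havcr2 or Lag3 cells (4.28%), and 3 with at least 2000 genes (10.4%). For WT CD4 minus CD8 the number past 1 either way (6) was 1 with a pseudocount of 10 (5.96% of all genes lower and 0.740% higher), 3 with equal detected genes (5.90% and 6.03%), 0 on mean FPKM (13.1% and 4.91%), 2 with at least 2000 genes (10.4% each) and 3 without Prf1 or Gzmb cells (18% and 3.09%). For KO CD4 minus CD8 the number (3) was 0 on mean FPKM (5.61% and 11.4%), 6 with at least 2000 genes (5.98% and 21.9%) and 1 without Foxp3 cells (8.28% and 3.96%). Reversed values occurred in WT CD4 minus CD8. The largest were Tapbp 1.67 and Tap2 1.10 with equal detected genes, and Tap1 reached 0.91 with at least 2000 genes. With equal detected genes, 2 members were thus higher by at least 1 and 1 was lower. Psmb8 had 0.37, Psmb9 0.79, Psmb10 0.29 and Psme2 0.05 in that setting. On mean FPKM Psmb10 had 0.06 and Psme2 0.09, and with at least 2000 genes Psmb10 had 0.17 and Psme2 0.01. Tap1, Tap2 and Tapbp were also higher in WT CD4 cells on mean FPKM. The cause was not tested. Without the gene filter, 4.03% of 15754 genes were lower by at least 1 in CD8 (13.3% with it), 0.254% in CD4 (0.983%), 7.11% in WT CD4 against CD8 (23.4%) and 1.18% in the same comparison of KO cells (4.55%), and 0.171%, 2.44%, 0.495% and 2.17% were higher. No paired analysis was possible because each group is 1 pool, and no replicate could be left out. Of the 36 shares of cells with a member, 26 moved past their 95% interval with at least 2000 genes, 13 without Pdcd1, Havcr2 or Lag3 cells, 5 without Foxp3 cells and 1 with detection at 5 FPKM. A transcript that is not found in a cell may be present below the level of 1 read.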
